A study of Arabidopsis thaliana with 12 samples.

Results

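Seed storage proteins and oleosins are the 10 Arabidopsis thaliana genes for the protein reserves and oil body coats of the mature seed, taken by gene ID from the 27655 genes in the count tables. They were the cruciferins CRA1, CRU2 and CRC, the albumins SESA1, SESA2, SESA3, SESA4 and SESA5, and the oleosins OLEO1 and OLEO2. Of the 120 values, 1 per gene and library, 68 were 0 reads and 3 reached 1 TPM (transcripts per 1000000). The geralt and wild-type libraries overlapped for every gene at both ages, for most genes because a library of each genotype had 0 reads. Neither of the 2 genes with enough reads for a test was called between genotypes. The largest values were those of CRA1 in single 12-day libraries, 173 reads in geralt library 11 and 867 reads in wild-type library 12, and not in 5-day geralt.

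Cruciferins are 12S globulins and the SESA proteins are 2S albumins, both laid down in protein storage vacuoles during seed maturation and broken down after germination to feed the seedling with nitrogen and sulphur. Oleosins are small proteins that coat oil bodies and keep them from fusing. Their genes are switched on in the maturing embryo by the B3 factors ABI3, FUS3 and LEC2, which bind RY elements, together with bZIP factors that bind ACGT-type elements such as the G-box and the abscisic acid response element (ABRE), and they are kept off in seedlings by VAL proteins and Polycomb complexes.

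The study sequenced polyadenylated RNA of whole plants from B5 agar plates with sucrose, in 4 groups of 3 libraries: geralt at 5 days (libraries 1, 3 and 7), wild type at 5 days (libraries 2, 4 and 8), geralt at 12 days (libraries 5, 9 and 11) and wild type at 12 days (libraries 6, 10 and 12). The geralt mutant is the T-DNA line SALK_116579, which the titles call phr2 and which is 1 insertion line, and the wild type is Col (N6000). The labels call the libraries biological replications and do not describe pooling of plants, so p-values measure the spread between these libraries. In whole plants, fewer cells of a type and less RNA per cell cannot be told apart.

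Total reads in genes were 41.6 to 115.03 M per library, and PHR2, the gene that the titles name, went with the genotype labels at 20.6 to 39.7 CPM (TMM-scaled counts per 1000000 reads) in geralt and 89.2 to 271 CPM in wild type over both ages. Its log2 fold change was -2.68 at 5 days (adjusted p = 0.0128) and -2.80 at 12 days (adjusted p = 0.0193). By edgeR its adjusted p ran up to 0.121 at 5 days with single libraries left out, and the call was lost in the 5 fits that lacked a 5-day library other than wild-type library 4. At 12 days it ran up to 0.0601, and the call was lost without geralt library 5 or 9. Wild-type libraries 4 and 12 and geralt library 5 had the largest chi-square of counts per degree of freedom over all genes. It was 261 to 501 against their group's other libraries and 67.4 to 205 between the remaining pairs. This measure grows with read depth. Wild-type libraries 4 and 12 were the deepest (115.03 and 91.6 M reads), so their chi-square cannot tell a larger spread from depth. Geralt library 5 had 43.9 M. Without any 1 library, and without wild-type library 4 and geralt library 5 together, none of the members tested below was called by edgeR in any comparison. Of 6 shoot markers, 4 were lower in geralt over both ages (LHCB1.1, log2 fold change -1.98, adjusted p = 0.0217, up to 0.0634 and lost in the same 5 fits), and none of 8 root markers was called. The summed TPM of the 6 shoot genes at 5 days was 15397 to 21365 in geralt. In 5-day wild type it was 44986 in library 2, 29406 in library 4 and 45441 in library 8. At 12 days it was 10114 to 32144 in geralt and 47248 to 50660 in wild type. The summed TPM of the 8 root genes at 5 days was 1589 to 3163 in geralt. In 5-day wild type it was 1149 in library 2, 2872 in library 4 and 1199 in library 8. At 12 days it was 1774 to 3811 in geralt and, in wild type, 2068 in library 6, 650 in library 10 and 523 in library 12. The summed TPM of 6 testa and endosperm markers was 9.36 to 13.2 in geralt and 6.33 to 10.8 in wild type at 5 days. At 12 days it was 9.75 to 12.3 in geralt and 6.80 to 8.67 in wild type. TPM was taken as deposited and not TMM-scaled. Of the 6 markers, 4 had too few reads for a test. The 2 tested were not called, with a median log2 fold change of 0.57 at 5 days, -0.59 at 12 days and -0.01 over both ages. TT12 and BAN of the testa had no read in any library but wild-type library 2, where BAN had 5. The part of tissue shares in the values below was not tested.

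The promoters are shown because the reserve genes share elements there that their regulators read. All 10 genes had the same coordinates in the files (TAIR10) and in the RefSeq annotation of TAIR10.1, and windows from 250 bases before to 50 bases after the annotated gene start were searched on both strands for RY (CATGCA), the G-box (CACGTG) and the ABRE core (ACGTG). The G-box contains the ABRE core, so each G-box counts for both. The 250 bases before the start of 3 genes are given 5′ to 3′ on the gene's strand from the RefSeq TAIR10.1 genome, with matches in capitals. They are the most abundant member, the albumin with the most RY matches and an oleosin that carries all 3 elements. The stretch of CRA1 (AT5G44120) is chr5:17758337-17758586, minus strand. The stretch of SESA3 (AT4G27160) is chr4:13611546-13611795, plus strand. The stretch of OLEO1 (AT4G25140) is chr4:12900180-12900429, plus strand.
CRA1: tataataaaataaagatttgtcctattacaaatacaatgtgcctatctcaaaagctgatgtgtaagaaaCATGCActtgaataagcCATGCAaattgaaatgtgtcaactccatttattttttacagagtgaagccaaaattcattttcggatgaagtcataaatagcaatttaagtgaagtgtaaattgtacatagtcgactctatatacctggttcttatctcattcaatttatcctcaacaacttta
SESA3: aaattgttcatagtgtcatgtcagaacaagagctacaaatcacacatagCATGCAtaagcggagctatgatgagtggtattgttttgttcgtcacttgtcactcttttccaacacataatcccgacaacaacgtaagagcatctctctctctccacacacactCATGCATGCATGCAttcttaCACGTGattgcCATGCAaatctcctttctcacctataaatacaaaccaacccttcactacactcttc
OLEO1: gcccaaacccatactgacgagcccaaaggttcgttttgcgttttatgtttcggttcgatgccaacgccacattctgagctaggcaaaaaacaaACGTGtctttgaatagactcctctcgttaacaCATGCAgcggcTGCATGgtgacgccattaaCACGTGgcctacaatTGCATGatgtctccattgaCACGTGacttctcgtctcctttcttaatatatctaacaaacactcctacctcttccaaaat

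Of 27444 gene windows of the same length, RY was found in 9.72%, the G-box in 7.68%, the ABRE core in 26.7% and both RY and the ABRE core in 2.91%. The 5 albumin genes each held a single G-box, beginning at position -65 to -68 from the gene start, with RY matches on both sides of it. SESA3 held 7 RY matches, 5 of them overlapping in 1 run. OLEO1 held 3 RY matches and 2 G-boxes, whereas CRA1 and OLEO2 held 2 RY matches each with neither other element. CRC held 1 RY match and 3 ABRE cores without a G-box. These are matches of letters and not measured sites.

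**Figure D1:**
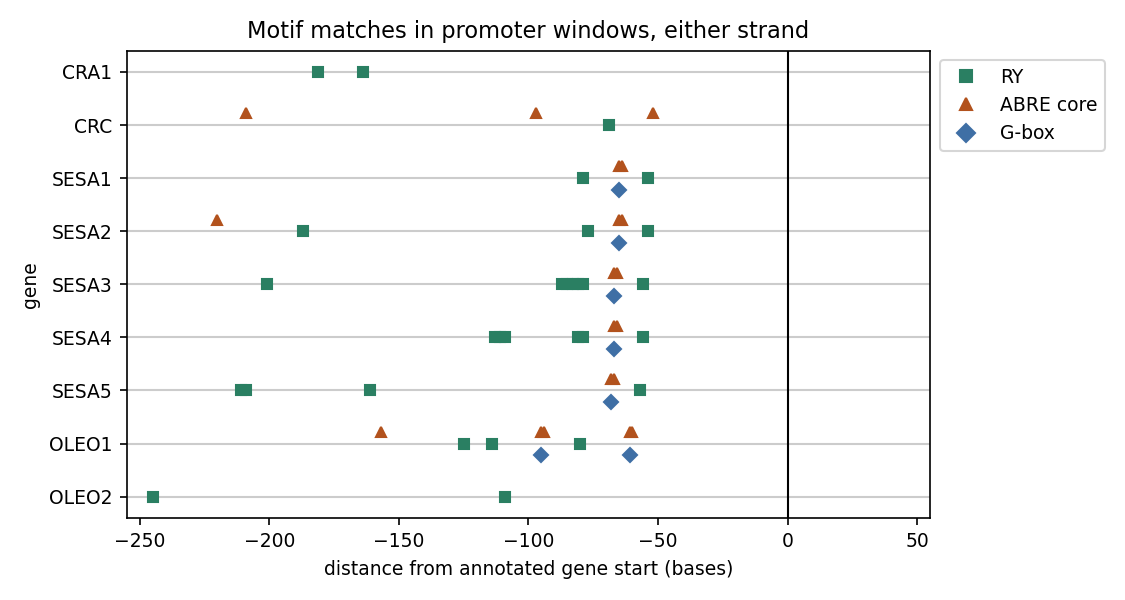
Position of RY, ABRE core and G-box matches relative to the annotated gene start (bases, 0 at the start) in 9 genes, either strand. In the 5 albumin genes the G-box sits at -65 to -68 with RY on both sides, and CRA1 and OLEO2 have RY matches alone.

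Of the 120 values, 19 were 1 to 3 reads, 33 were more than 3 reads and 2 were more than 100. The 3 values that reached 1 TPM were CRA1 with 3.07 TPM in 12-day geralt library 11, CRA1 with 8.41 TPM in 12-day wild-type library 12 and SESA4 with 1.04 TPM in 12-day geralt library 9. CRA1 gave 1187 of the 1540 reads of all 10 genes (77.1%). Every one of these reads was a unique gene read, so near-identical copies did not share them. Exon-exon reads made up 64.2% of the CRA1 reads and 57.9% of the OLEO1 reads, while the 5 albumin genes have 1 exon each and can show none.

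The 10 genes together had 0.208, 1.64 and 0.538 reads per 1000000 gene reads in 5-day geralt, against 0.0241, 0.469 and 0.311 in 5-day wild type. At 12 days they had 0.342, 0.534 and 4.25 in geralt, against 1.63, 0.220 and 10.5 in wild type. The groups overlapped at both ages. The reads sat in a few libraries: geralt library 3 held reads of 8 members, wild-type libraries 6 and 12 of 7 each, and wild-type library 2 of 1. In the 5-day plants 80 of the reads outside CRA1 lay in geralt library 3, against 4 and 11 in the other 2 geralt libraries and 0, 33 and 8 in the wild-type libraries. EPR1, an endosperm marker chosen after its values were seen, had 73 reads in geralt library 3 and at most 4 in any other library. It is 1 of 6 testa and endosperm markers, of which 3 had reads in geralt library 3 and BAN and TT12 had none. Their summed TPM was 13.2 there, against 9.36 and 10.4 in geralt libraries 1 and 7. The part of endosperm in the reads of geralt library 3 was not tested.

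**Figure D2:**
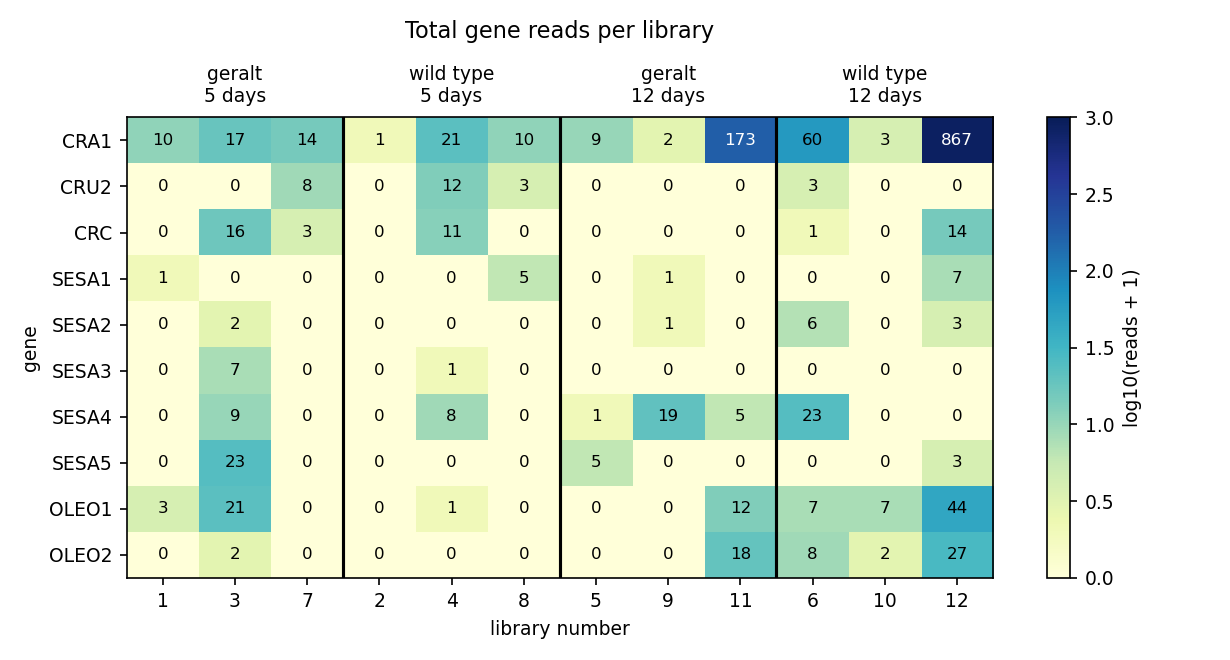
Total gene reads of the 10 genes (rows) in the 12 libraries (columns, by library number), with geralt left of wild type at each age; shading is log10(reads + 1). Most cells hold 0, and the darkest are CRA1 in wild-type library 12 (867 reads) and geralt library 11 (173 reads).

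Among the cruciferins, CRA1 (chr5:17756238-17758336, minus strand), the gene of the cruciferin A subunit, was the only member with reads in all 12 libraries. It had 10, 17 and 14 reads in 5-day geralt and 1, 21 and 10 in 5-day wild type, and 9, 2 and 173 in 12-day geralt and 60, 3 and 867 in 12-day wild type. The 5-day groups shared 1 range, and at 12 days each genotype held 1 library far above its others. Scaled to depth, CRA1 averaged 0.219 ± 0.0712 CPM in geralt and 0.126 ± 0.0886 CPM in wild type at 5 days (SD, n = 3 each). At 12 days it averaged 1.21 ± 1.92 CPM in geralt and 3.82 ± 5.65 CPM in wild type (SD, n = 3 each), with an SD above the mean in both. Its TPM was higher than that of 21.5% to 63.2% of all listed genes, depending on the library.

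CRU2 (AT1G03880), the cruciferin B gene, had 0, 0 and 8 reads in 5-day geralt and 0, 12 and 3 in 5-day wild type. At 12 days it had no read in geralt, which allows up to 0.0199 CPM over the group, and 3, 0 and 0 reads in wild type. All 26 of its reads spanned exon junctions. CRC (AT4G28520), the cruciferin C gene, had 0, 16 and 3 reads in 5-day geralt and 0, 11 and 0 in 5-day wild type, with summed reads 2.00 times as high relative to depth (95% counting interval 0.903 to 4.65). At 12 days CRC had no read in geralt and 1, 0 and 14 in wild type. With 3 reads set for the geralt group, its level there was 4.21-fold lower than in wild type, but the groups overlapped at 0. Of the 15 wild-type reads, 14 were in library 12. Counting intervals and limits treat each read as its own molecule and so cover counting error only, not the spread between libraries. Fold values against a group with 0 reads take the other group's reads as counted, without their own counting error.

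The albumins SESA1 to SESA4 (AT4G27140, AT4G27150, AT4G27160 and AT4G27170) are neighbours on chromosome 4, and SESA5 (AT5G54740) lies on chromosome 5. SESA1 had 1, 0 and 0 reads in 5-day geralt and 0, 0 and 5 in 5-day wild type, and 0, 1 and 0 in 12-day geralt and 0, 0 and 7 in 12-day wild type. SESA2 had 2 reads in 1 library in 5-day geralt and none in 5-day wild type, and 0, 1 and 0 in 12-day geralt and 6, 0 and 3 in 12-day wild type. The highest level was 0.192 TPM for SESA1 and 0.190 TPM for SESA2, each in a wild-type library, and the genotypes overlapped at both ages.

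SESA3, whose promoter held 7 RY matches, had 0, 7 and 0 reads in 5-day geralt, 0, 1 and 0 in 5-day wild type and none in either genotype at 12 days. SESA4 had 0, 9 and 0 reads in 5-day geralt and 0, 8 and 0 in 5-day wild type, and 1, 19 and 5 in 12-day geralt and 23, 0 and 0 in 12-day wild type. It was the only albumin with reads in all 3 libraries of a group, and its depth-scaled summed reads were 1.29 times as high in geralt at 12 days (counting interval 0.703 to 2.38). SESA5 had 0, 23 and 0 reads in 5-day geralt and none in 5-day wild type, with every read in geralt library 3. With 3 reads set for wild type, its summed reads at 5 days were 8.87-fold higher in geralt relative to depth. At 12 days SESA5 had 5, 0 and 0 reads in geralt and 0, 0 and 3 in wild type. For each albumin, the reads of a 5-day group all came from 1 library.

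OLEO1 (chr4:12900430-12901577, plus strand, 2 exons), a major oleosin of the seed, had 3, 21 and 0 reads in 5-day geralt and 0, 1 and 0 in 5-day wild type. In summed reads that is 27.8 times as high relative to depth (counting interval 4.53 to 1142), yet 1 geralt library had no read and another held 21 of the 24. At 12 days OLEO1 had 0, 0 and 12 reads in geralt and 7, 7 and 44 in wild type, 0.246 times as high in summed reads (counting interval 0.120 to 0.463), and the groups again overlapped. The order of the group means was opposite at the 2 ages, but edgeR did not call the genotype by age interaction (adjusted p = 0.456). Mean levels were 0.122 ± 0.177 CPM in geralt and 0.00255 ± 0.00441 CPM in wild type at 5 days (SD, n = 3 each). At 12 days they were 0.0793 ± 0.137 CPM in geralt and 0.276 ± 0.216 CPM in wild type (SD, n = 3 each).

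OLEO2 (AT5G40420) had 0, 2 and 0 reads in 5-day geralt and none in 5-day wild type. At 12 days it had 0, 0 and 18 reads in geralt and 8, 2 and 27 in wild type, 0.578 times as high in summed reads (counting interval 0.310 to 1.04). Of its 57 reads, 12.3% spanned the exon junction (2 exons). All 5 libraries with OLEO2 reads also had OLEO1 reads.

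**Figure D3:**
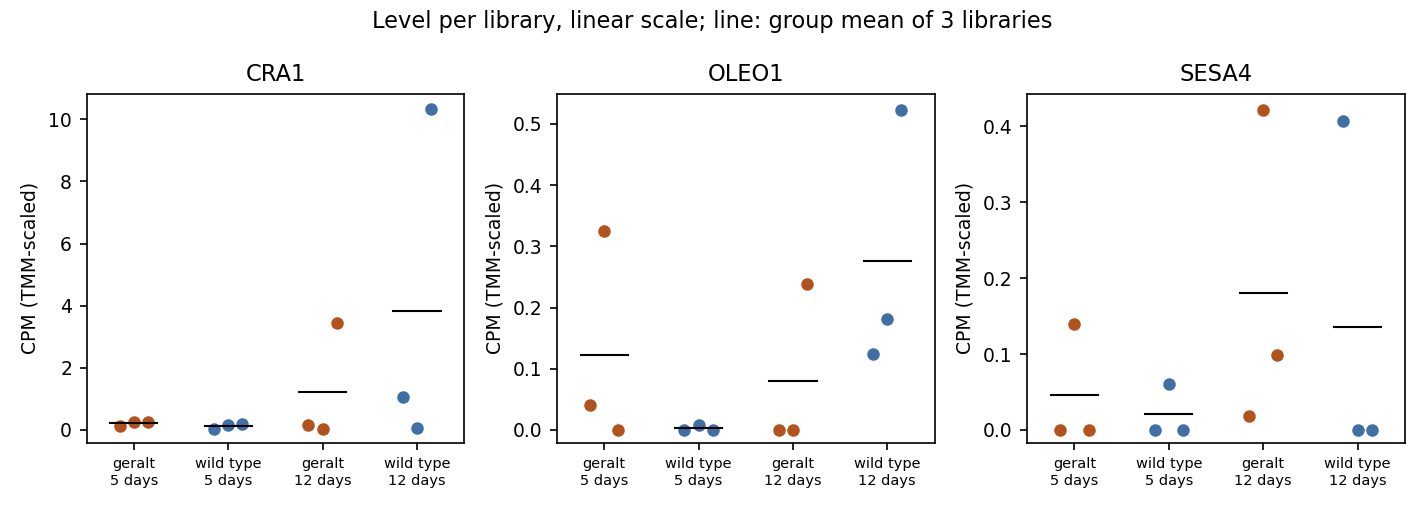
CPM of CRA1, OLEO1 and SESA4 in each library (points, linear axes that differ between panels) with the group mean (line), geralt left of wild type at each age. Geralt and wild type overlap at both ages for all 3 genes, and 1 library sets the mean of most groups.

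Only CRA1 and OLEO1 had enough reads for a test across all genes. At 5 days edgeR called 0 of the 2 in geralt against wild type, against 0.26% of 21122 tested genes. OLEO1 had a log2 fold change of 4.34, with SE 1.96 and adjusted p = 0.344, the only one of the 2 with an unadjusted p below 0.05, and CRA1 one of 0.70, with SE 1.57 and adjusted p = 0.884. Without geralt library 3 the value for OLEO1 was 1.98 (adjusted p = 0.860). At 12 days 0 of the 2 were called, against 0.8% of genes, with log2 fold changes of -1.66 for CRA1 (SE 1.39, adjusted p = 0.543) and -1.80 for OLEO1 (SE 1.43, adjusted p = 0.523). The value for OLEO1 at 12 days moved to -7.14 when geralt library 11 was left out and to -0.91 when wild-type library 12 was. DESeq2 called neither at 5 days and did not call CRA1 at 12 days, where it gave OLEO1 no adjusted p.

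Over the mean of both ages 0 of the 2 were called by edgeR or DESeq2, against 5.53% of genes by edgeR, with log2 fold changes of -0.48 for CRA1 (SE 1.05, adjusted p = 0.842) and 1.27 for OLEO1 (SE 1.18, adjusted p = 0.594). The direction for CRA1 rested on wild-type library 12, without which its log2 fold change was 1.06 at 12 days and 0.89 over both ages. That for OLEO1 rested on geralt library 11, without which it was -1.40 over both ages. All 10 members overlapped between genotypes at both ages, while 27.2% of tested genes at 5 days and 19.1% at 12 days had no overlap. Most members were under the filter, so these shares come from an unlike set of genes. At 5 days every member but CRA1 had a library with 0 reads in each genotype, which fixes an overlap. The same held at 12 days for CRU2, CRC, SESA1, SESA2, SESA3 and SESA5.

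Between ages no member was called by edgeR in either genotype, against 0% of genes in both. In wild type, CRA1 had a log2 fold change of 4.83 at 12 against 5 days (SE 1.64, adjusted p = 0.163) and OLEO1 one of 5.52, with SE 1.93 and adjusted p = 0.171, both with an unadjusted p below 0.05. DESeq2 called CRA1 there (4.90, adjusted p = 0.0435), with 867 of the 930 reads of 12-day wild type in library 12. Without that library the edgeR value for CRA1 was 2.12 (adjusted p = 0.404), and over all fits that left out 1 library the adjusted p ran from 0.0970 to 0.404. In geralt no member had 12-day libraries that all lay apart from the 5-day ones, against 9.38% of tested genes. Every member but CRA1 and SESA4 had a geralt library with 0 reads at each age, which fixes an overlap. In wild type OLEO1 and OLEO2 were the only members whose 3 wild-type libraries at 12 days all lay above the 3 at 5 days, as did 10.8% of tested genes. OLEO2 had 37 wild-type reads at 12 days and none at 5 days. With 3 reads set for 5 days, its summed reads were 15.3-fold higher at 12 days relative to depth.

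In geralt, CRA1 had a log2 fold change of 2.47 at 12 against 5 days (SE 1.5, adjusted p = 1) and OLEO1 one of -0.62, with SE 1.46 and adjusted p = 1. Without geralt library 11 the value for CRA1 was -1.02, and without geralt library 3 that for OLEO1 was 1.75, so in each gene 1 library set the direction. The genotype by age interaction called 0 of the 2, against 0% of genes, with -2.36 for CRA1 (SE 2.09, adjusted p = 0.695) and -6.14 for OLEO1 (SE 2.43, adjusted p = 0.456). OLEO1 alone had an unadjusted p below 0.05. DESeq2 did not call CRA1 and gave OLEO1 no adjusted p, and without wild-type library 12 the value for CRA1 was 0.35.

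Of 13 other genes of storage and oil bodies, 5 had enough reads for a test, namely PAP85, OLEO3, OLEO4, OLEO5 and HSD1. Of these, 0 were called by edgeR at either age or over both. Over both ages 4 of the 5 log2 fold changes lay above 0 and 1 below, with a median of 0.73 against 0.0045 for all genes. The globulin-like cupin AT1G03890, the neighbour of CRU2, had no read in any library. By contrast OLEO4 (AT3G27660), another oleosin, had reads in every library, 4.31 to 6.66 CPM in geralt and 3.05 to 7.43 CPM in wild type at 5 days, and 6.49 to 8.08 CPM in geralt and 2.60 to 5.49 CPM in wild type at 12 days. Its 12-day groups did not overlap, and its log2 fold change there was 0.97 (SE 0.38, adjusted p = 0.204). HSD1, a steroleosin of oil bodies, had 0.618, 0.698 and 0.569 CPM in 5-day geralt and 0, 0.260 and 0.0385 CPM in 5-day wild type, with a log2 fold change of 2.45, with SE 1.11 and adjusted p = 0.347. OLEO3 and OLEO5 also had reads in all 12 libraries, OLEO5 with a log2 fold change of 0.73 over both ages (SE 0.31, adjusted p = 0.203), and the caleosin CLO1, an oil body calcium-binding protein, had no read in 7 of them. OLEO4 in TPM, the unit that allows for length, was 2.37 to 11.6, above each of the 10 members in every library but wild-type library 12, where CRA1 was higher.

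Of 14 late embryogenesis genes, proteins and regulators that accumulate as seeds dry, 9 were tested, and over both ages 1 was higher, 1 was lower and the median log2 fold change was -1.83. DOG1, the regulator of seed dormancy, had 0.480, 0.217 and 0.239 CPM in 5-day geralt and 2.13, 0.626 and 1.31 CPM in 5-day wild type, and 0.397, 0.378 and 0.218 CPM in 12-day geralt and 0.813, 2.12 and 2.02 CPM in 12-day wild type. All geralt libraries lay below all wild-type libraries, and the log2 fold change over both ages was -2.20 (SE 0.42, adjusted p = 0.0135). With exon-exon reads its adjusted p was 0.0502. M17, a late embryogenesis protein, had 10.2, 2.78 and 1.84 CPM in 5-day geralt and 0, 0.764 and 0 CPM in 5-day wild type, and 0.668, 3.51 and 1.19 CPM in 12-day geralt and 0, 0.181 and 0.238 CPM in 12-day wild type. It was higher in geralt at each age without overlap, with a log2 fold change over both ages of 3.85 (SE 0.96, adjusted p = 0.0376), and it stayed past the threshold in 3 of 12 fits that each left out 1 library (those without wild-type library 4, geralt library 5 or geralt library 11; highest adjusted p = 0.103). EM1 and EM6, early methionine-labelled proteins of the dry seed, had at most 9 reads in any library.

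The upstream regulators were then read. Of 14 maturation activators 8 were tested and 0 called in any genotype comparison by edgeR, with BZIP10 at the smallest p (log2 fold change over both ages -0.53, SE 0.15, adjusted p = 0.0656). Of the B3 factors that bind RY, ABI3 had at most 18 reads in a library, FUS3 at most 12 and LEC2 at most 17. All 16 repressors, among them the VAL proteins and Polycomb subunits, were tested and 0 were called, with a median log2 fold change of 0.01 over both ages. Of 6 genes that process storage proteins 5 were tested and 0 called, with alphaVPE, a vacuolar processing enzyme, at the smallest p over both ages (log2 fold change 0.68, SE 0.29, adjusted p = 0.201).

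Genes of oil breakdown, the step that follows oil body coats in the seedling, were all measured. Of 15, 1 was higher and 0 lower over both ages, and the median log2 fold change was 0.34. The one was PCK1, the carboxykinase that turns oil carbon into sugar, with 353, 242 and 283 CPM in 5-day geralt and 124, 195 and 136 CPM in 5-day wild type, and 443, 202 and 176 CPM in 12-day geralt and 152, 151 and 164 CPM in 12-day wild type. All geralt libraries lay above all wild-type libraries of their age, at a log2 fold change of 0.88, with SE 0.23 and adjusted p = 0.0461, past the threshold in 2 of 12 fits that left out 1 library (those without wild-type library 4 or geralt library 11; highest adjusted p = 0.123). ICL, the isocitrate lyase of the glyoxylate cycle, chosen after its values were seen, had 114, 116 and 183 CPM in 5-day geralt and 43.3, 84.9 and 41.5 CPM in 5-day wild type, and 574, 28.2 and 5.73 CPM in 12-day geralt and 6.35, 29.3 and 3.09 CPM in 12-day wild type. Its 5-day groups did not overlap and its 12-day groups did, and its log2 fold change over both ages was 2.63 (SE 0.88, adjusted p = 0.106). By DESeq2 the adjusted p was 0.0400. With 1 library left out, edgeR passed the threshold in 1 of 12 fits, that without geralt library 11 (adjusted p = 0.0341). Without geralt library 5, the one with 574 CPM, the log2 fold change was 0.85 (adjusted p = 0.452).

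Of 10 abscisic acid genes, all tested, 1 was lower at 12 days and 1 lower over both ages. Of all tested genes, 0.8% and 5.53% were called in these comparisons, in either direction. The median log2 fold change of the list was -0.67 at 12 days, with 9 genes below 0 and 1 above. Over both ages it was -0.89, with 8 below 0 and 2 above. CYP707A2, which breaks the hormone down, had 3.38 to 4.02 CPM in geralt and 6.85 to 12.0 CPM in wild type at 5 days, and 3.48 to 10.1 CPM in geralt and 8.27 to 12.5 CPM in wild type at 12 days. Its log2 fold change over both ages was -1.02 (SE 0.25, adjusted p = 0.0347), with no overlap at 5 days and overlap at 12 days. It was past the threshold in 4 of 12 fits that left out 1 library (those without wild-type library 4, 6 or 12 or geralt library 9; highest adjusted p = 0.0927), and with exon-exon reads its adjusted p was 0.0760. NCED3, which makes the precursor of the hormone, had 0.830 to 3.77 CPM in geralt and 11.2 to 23.5 CPM in wild type at 12 days, a log2 fold change of -2.89, with SE 0.58 and adjusted p = 0.0461, past the threshold in 2 of 12 fits that left out 1 library (those without wild-type library 4 or geralt library 11; highest adjusted p = 0.144). With only the 12-day libraries fitted its adjusted p was 0.205.

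**Figure D4:**
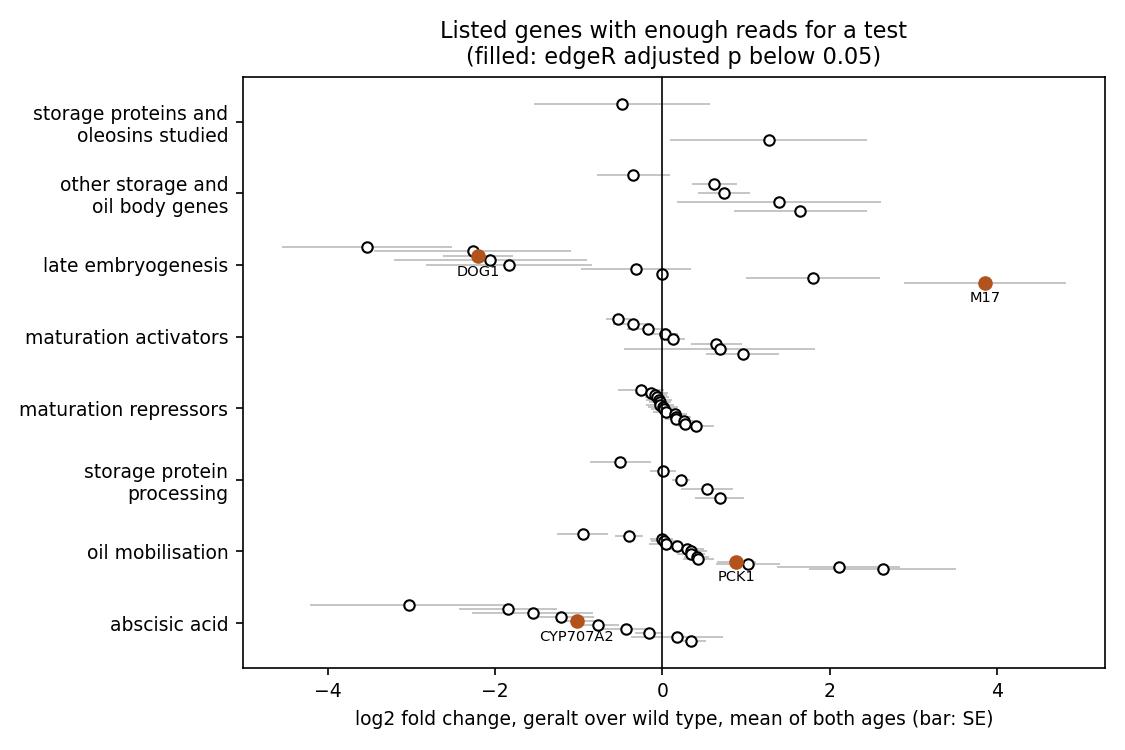
Log2 fold change of geralt over wild type, mean of both ages, for the tested genes of each list (points; bars are the SE), with genes past an edgeR adjusted p of 0.05 filled. DOG1 and CYP707A2 are lower and M17 and PCK1 higher, and neither of the 2 tested storage genes is filled.

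**Figure D5:**
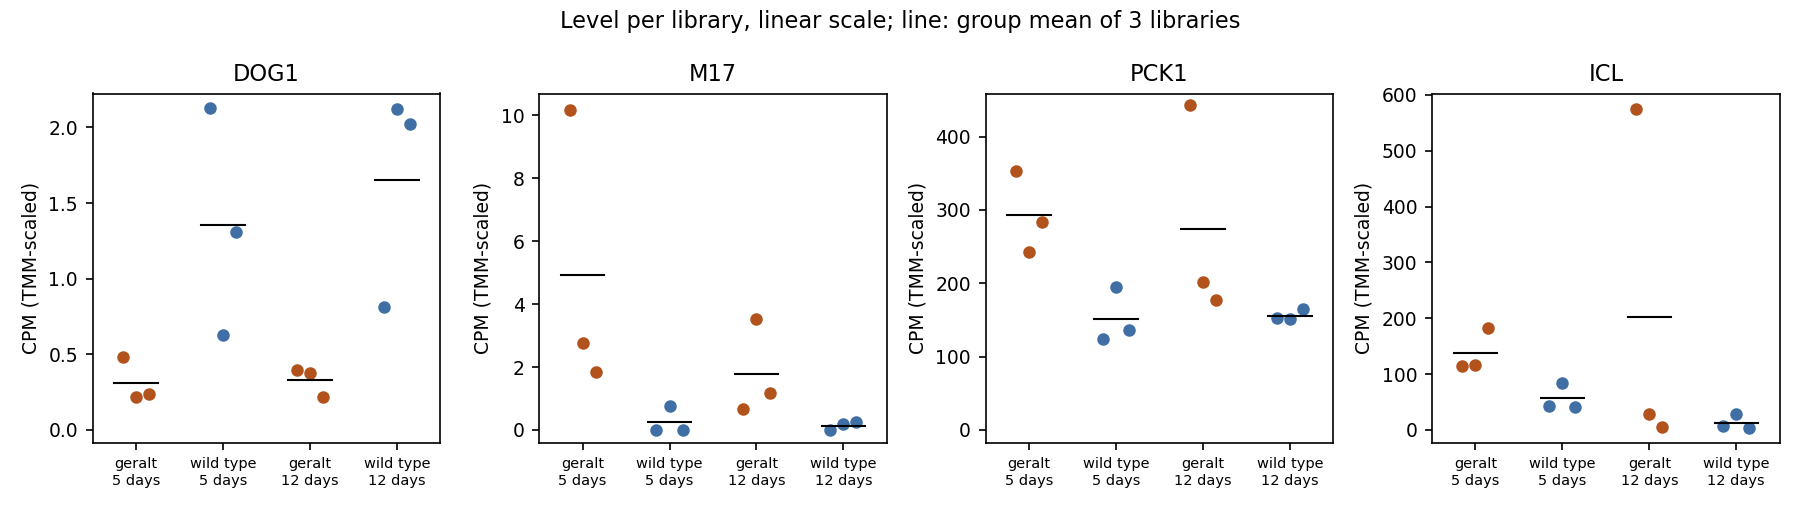
CPM of DOG1, M17, PCK1 and ICL per library (points, linear axes that differ between panels) with the group mean (line), geralt left of wild type at each age. DOG1 is lower and M17 and PCK1 higher in geralt with no overlap at either age, while ICL overlaps at 12 days.

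The genes whose pattern was most like the mean log2 CPM of the 10 members over the 12 libraries were PER1 (Pearson r = 0.89), AT1G70550 (0.89), AT1G76380 (0.88), BGLU19 (0.88), AT5G05965 (0.85), AT5G45840 (0.84), AT5G53500 (0.84) and AT5G03470 (0.84). Points share library depth, and r is given with no p. PER1, a peroxiredoxin of seeds, had 0, 9 and 2 reads in 5-day geralt and 0, 5 and 0 in 5-day wild type, and 0, 0 and 62 in 12-day geralt and 70, 0 and 193 in 12-day wild type. It was high in the same 3 libraries, geralt 11 and wild type 6 and 12, as CRA1 and OLEO2. Since PER1 was picked by its likeness to the members, this sharing follows from the choice and is no separate result. Of the 8 genes, AT5G05965 was highest in wild-type library 6 and all others in wild-type library 12. TIP3;1, a water channel of the seed vacuole, was named after its values were seen. It is 1 of the 13 other genes of storage and oil bodies. At 12 days TIP3;1 had 8 reads in geralt library 11, 14 and 12 in wild-type libraries 6 and 12, and none in the other 3 libraries.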

How the data were processed

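The authors deposited, per library, counts of reads per gene (total, unique, exon, intron and exon-exon gene reads, per the file headers) and TPM. The genome build was TAIR10, per the submitters' processing notes. Aligner, counter, use of strand and whether a pair counts as 1 or 2 reads were not given in the sources used here. Total gene reads were tested as deposited with edgeR 4.0.16 (R 4.3.3): TMM scaling, filterByExpr by group, 1 mean per group over all 12 libraries (8 residual degrees of freedom), quasi-likelihood test, Benjamini-Hochberg adjustment over 21122 genes, threshold 0.05. The SE is the absolute log2 fold change over the square root of F. CPM values are TMM-scaled. Genes under the filter were described by reads, with exact Poisson or conditional 95% counting intervals and a limit of 3 reads over the group against 0.

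Groups came from titles and genotype labels. Library numbers are not shared between groups. The members, lists, tests and alternatives were chosen with earlier results of these data known. All 10 members were named. Of each list, up to 3 called genes per comparison with the smallest p were named, or the 1 with the smallest p. Some of the other cupins, oleosins and caleosins were named too. EM1, EM6, ABI3, FUS3, LEC2, TIP3;1, EPR1, BAN, TT12 and ICL were named after their values were seen. The 8 genes most like the members were taken by Pearson r with the members' mean log2 CPM (prior count 2). Alternatives were RLE factors, DESeq2 1.42.0, no filter, unique or exon-exon reads, organellar genes left out, only the libraries compared, TPM as deposited, and single libraries left out. The scripts were tested on simulated data, with changes placed only in genes averaging more than 2 CPM. That test did not cover the low levels of OLEO1 and of most CRA1 values. The authors' own comparison tables were not used here. Sequencing lanes are not labelled per library, so lane was no term. The promoter window of 1 member is not reported here, so no count over the members' windows is given.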

Additional observations from a re-analysis of the deposited data

How the results depend on the processing

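Of the members tested, edgeR called 0 under every alternative that was fitted and with any 1 library left out (0 to 0). Fitting only the libraries compared gives no separate value over both ages or for the interaction, which use all 12, and TPM gave levels with no test. DESeq2 called 1, CRA1 at 12 against 5 days in wild type. With no filter on low counts all 10 members were tested, 0 were called by edgeR, and the lowest adjusted p was 0.167. With single libraries left out, fold changes were followed only for CRA1 and OLEO1, the members tested with all 12 libraries, and both had reversals. For CRA1 they ran from -5.13 to 1.06 at 12 days, from -2.21 to 0.89 over both ages, from -1.02 to 3.03 at 12 against 5 days in geralt, and from -5.83 to 0.35 for the interaction. For OLEO1 they ran from -1.40 to 2.01 over both ages and from -5.97 to 1.75 at 12 against 5 days in geralt, and with no change of direction from 1.98 to 5.80 at 5 days, from -7.14 to -0.91 at 12 days and from -11.49 to -3.78 for the interaction. The mean level of CRU2 at 5 days, geralt over wild type, was -0.02 as log2 CPM ratio and 0.19 with deposited TPM. The cause was not tested. Over all genes, the calls at 5 days were 55, against 903 by DESeq2, 960 with only the 5-day libraries and 547 without wild-type library 4 and geralt library 5 together, an alternative chosen after seeing the data, and 4 to 314 with any 1 library left out. At 12 days they were 169, against 1376 by DESeq2, 7 with only the 12-day libraries, 60 with exon-exon reads, 62 without those 2 libraries and 4 to 504 with 1 left out. Over both ages they were 1167, against 2279 by DESeq2 and 706 with exon-exon reads and 366 to 1330 with 1 left out. In the age contrasts they were 0 by edgeR, against 62 by DESeq2 in geralt and 1129 in wild type, with 974 genes in geralt and 4179 in wild type at an unadjusted p below 0.05. With 1 library left out they were 0 to 8 in geralt and 0 to 426 in wild type, the 426 without wild-type library 6. The interaction called 0 by edgeR and 78 by DESeq2, with 2185 genes at an unadjusted p below 0.05. No paired analysis was possible because the library numbers 1 to 12 are each used once and no number is shared between groups. Depth limits the rest, since 8 of the 10 members were under the filter on low counts and are given by their reads.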
